A study of Mus musculus with 13 samples.

Results

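Expression of 10 genes of the glucocorticoid response was followed in mouse tail tissue with lymphedema. They comprised 5 genes that the glucocorticoid receptor induces in many tissues (Tsc22d3, Fkbp5, Sgk1, Zbtb16 and Klf9) and the receptor gene itself (Nr3c1). The remaining members were the enzymes that regenerate or inactivate the hormone (Hsd11b1 and Hsd11b2) and the metallothioneins Mt1 and Mt2. The members were chosen by gene symbol, through the Ensembl identifiers of the deposited table, and not by their values. Earlier results of these data were known when they were chosen. All 10 were among the 55357 genes of the table, and all 10 were among the 22876 genes that passed the filter on low counts. Total RNA cleared of ribosomal RNA was sequenced from 13 samples of mouse tail, 7 in the group TNTSham and 6 in the group TNTProx1. Every sample was 12 weeks of age and taken on day 28 following TNT. TNT is read here as tissue nanotransfection, in which a brief electric field carries nucleic acids into skin. Prox1 is the master transcription factor of lymphatic endothelial cells. The sources used here do not give strain, sex, the delivered constructs, the content of the sham treatment, the time of day of collection, or whether samples came from separate animals. P-values therefore measure the spread between these samples, which may be technical.

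The level of a gene is given as CPM, its count scaled to library size with TMM factors (trimmed mean of M values). Samples are named by group and a number that pairs nothing across groups. Total counts averaged 36.6M ± 6.32M over the TNTSham libraries (SD, n = 7; M, mega) and 40.4M ± 5.08M over those of TNTProx1 (SD, n = 6). Markers of cell types of the tail were present: 9 of 9 keratinocyte, 8 of 8 fibroblast and 12 of 12 skeletal muscle markers had counts in every library. The same held for 8 of 8 adipocyte, 7 of 7 macrophage, 6 of 6 mast cell and 7 of 7 T cell markers. Kidney epithelium had 2 of 5. Presence of counts therefore does not identify the tissue. In a principal component analysis, TNTProx1 4, 5 and 6 lay away from the remaining 10 libraries. TNTProx1 4 lay far from the other 2 as well. On the first component, with 69.6% of the variance, it was at 117, TNTProx1 5 and 6 at 35.7 and 46.4, and the remaining 10 at -30.8 to -7.61. Gene models of the class TEC (to be experimentally checked) took a share of their counts of 0.136 to 0.193%, and of 0.378 to 0.745% of the counts of the other 10. Results are therefore also given over 10 libraries, without these 3. Marker sums differed as well. The summed level of 12 skeletal muscle markers was 9395 to 16275 CPM in TNTSham and 4648 to 11940 CPM in TNTProx1, and that of 7 blood endothelial markers was 318 to 605 and 591 to 794 CPM. The sum of 8 fibroblast markers was 32878 to 58852 CPM in TNTSham and 44182 to 119396 CPM in TNTProx1, and that of 9 keratinocyte markers 28780 to 44520 and 6571 to 58728 CPM. Their part in the results was not tested, except through the fit with a muscle score given below. That score is the mean over the 12 markers of log2 CPM, each scaled across libraries, and it did not follow the sum in every library. TNTProx1 4, 5 and 6 had sums of 4648, 5106 and 6176 CPM, below every TNTSham library. Their scores, -0.17, -0.043 and 0.13, lay inside the TNTSham range of -0.32 to 1.41. Fits with the score therefore do not adjust for this difference in summed level. In bulk tissue, fewer cells of a type and less RNA per cell cannot be told apart. Xist, the RNA of the inactive X chromosome, was abundant in TNTSham 1 alone (2095 CPM), and 2.01 CPM was the highest value elsewhere.

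Glucocorticoids are steroid hormones of the adrenal cortex, and corticosterone is the main one in mice. The hormone crosses the cell membrane, binds its receptor in the cytoplasm, and the receptor then moves to the nucleus and binds DNA at glucocorticoid response elements. Secretion follows a daily rhythm and rises under stress, so that target genes such as Per1, Fkbp5 and Tsc22d3 report on recent hormone and are also coupled to the circadian clock. Within a tissue, Hsd11b1 regenerates active hormone from its inert form, and Hsd11b2 does the reverse. Metallothioneins are small, cysteine-rich proteins that bind zinc and copper. Their genes respond to metals through the transcription factor Mtf1, and to glucocorticoids and oxidative stress.

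The comparison asks how these genes differed between tail tissue of the TNTProx1 and the TNTSham group. Of the 5 receptor-induced members, Zbtb16 and Tsc22d3 stood lower in TNTProx1 by the widest margin, Klf9 and Fkbp5 by less, and Sgk1 by less than its error. Of the metallothioneins, Mt1 stood higher. The receptor gene had nearly the same mean in both groups. No member passed the test: edgeR's quasi-likelihood test with Benjamini-Hochberg adjustment called 0 of 10 members at an adjusted p under 0.05, against 0% of all genes tested. Of the 10, 4 had a log2 fold change above 0 and 6 below, beside 47.7% and 52.3% of all genes. With an unadjusted p under 0.05, 4 members stood out, beside 12.2% of all genes. Mt1 was the 1 of 10 that was higher, beside 8.33% of all genes, and Zbtb16, Tsc22d3 and Klf9 were the 3 of 10 that were lower, beside 3.92%. For none of the 10 did all 6 TNTProx1 libraries lie outside the TNTSham range, a separation seen in 0.398% of all genes upward and 0.214% downward. Over 10 libraries the edgeR test again called 0 members (0% of all genes). There, 3 members were lower at an unadjusted p under 0.05 (Tsc22d3, Zbtb16 and Sgk1, beside 12.1% of genes) and 0 higher (9.34%). The DESeq2 Wald test called 1 member, Zbtb16, which was lower, beside 0.976% of genes lower and 2.64% higher (3.62% in all, of those given an adjusted p). Limma voom with quality weights also called 1, Tsc22d3, lower, beside 0.647% lower and 1.86% higher (2.5% in all). The edgeR fit with the TEC share as a covariate called Zbtb16, beside 2.38%, and edgeR without TNTProx1 1 called Zbtb16 and Mt1, beside 2.55%.

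**Figure D1:**
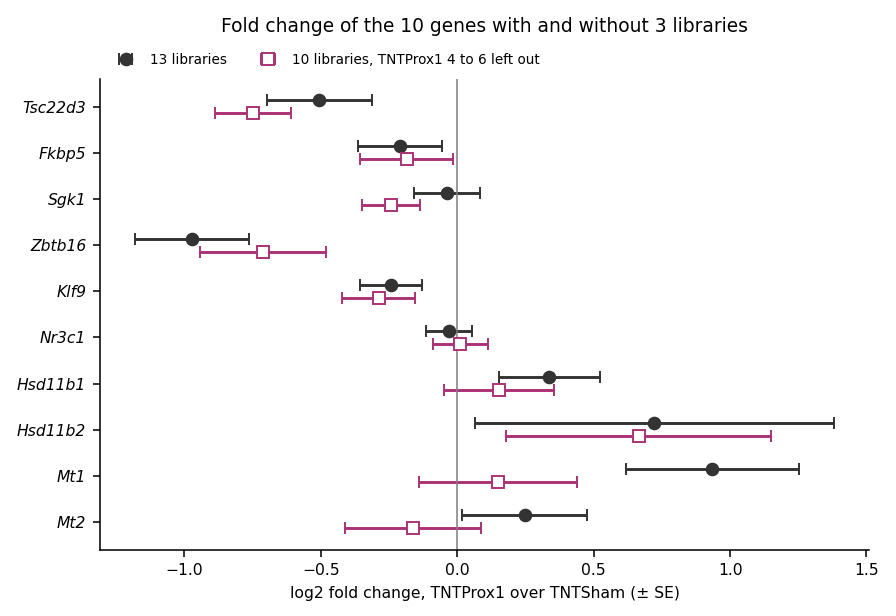
Log2 fold change of TNTProx1 over TNTSham (x axis, bars ± SE) for the 10 genes, from the fit of 13 libraries (filled circles) and of 10 libraries (open squares). Zbtb16 and Tsc22d3 lie below 0 in both fits, at -0.97 and -0.51 with 13 libraries, while Mt1 moves from 0.93 to 0.15.

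The members differed widely in abundance. Per kilobase of annotated exon, the TNTSham mean was highest for Mt2, at 60.3 ± 12.1 CPM per kilobase (SD, n = 7), whose range did not overlap that of the next gene. Nr3c1, Sgk1, Tsc22d3, Mt1 and Klf9 followed at 27.6, 25.4, 20.6, 19.4 and 16.5 CPM per kilobase, and the TNTSham ranges of each overlapped those of its neighbour in that order. Zbtb16 came next at 9.51, below the range of Klf9, then Fkbp5 at 4.61 and Hsd11b1 at 3.99 CPM per kilobase, each overlapping its neighbour. Hsd11b2 was lowest, at 0.19 CPM per kilobase, with no overlap. This order rests on the annotated exon lengths, which were 588 bases for Mt2 and 1246 for Mt1. Before division by length, the TNTSham ranges of these 2 genes overlapped, at 27.7 to 45.7 and 16.2 to 32.3 CPM.

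Tsc22d3 (ENSMUSG00000031431.14, chromosome X) encodes GILZ, a leucine zipper protein that carries part of the anti-inflammatory action of glucocorticoids. Its lowest, median and highest levels were 66.1, 95.8 and 106 CPM in TNTSham and 50.6, 53.5 and 114 CPM in TNTProx1. The TNTProx1 group was split. TNTProx1 1, 2, 3, 5 and 6 lay close together at 50.6 to 54.0 CPM, below every TNTSham library, whereas TNTProx1 4 was above every one of them. On the log2 scale the groups differed by -0.51 ± 0.19 (SE; edgeR adjusted p = 0.291). Without TNTProx1 4 it was -0.76 ± 0.11 (adjusted p = 0.12). With 10 libraries it was -0.75 ± 0.14 (adjusted p = 0.0685), and there the groups did not overlap, as for 5.8% of all genes in the downward and 3.45% in the upward direction. The limma voom fit, which weights libraries by quality, gave -0.71 (adjusted p = 0.0287). TNTProx1 5 and 6, which lay apart with TNTProx1 4 on the first component, had Tsc22d3 levels like those of TNTProx1 1 to 3.

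Zbtb16 (ENSMUSG00000066687.6, chromosome 9) encodes the zinc finger repressor PLZF, whose gene is induced by glucocorticoids in several cell types. Its lowest, median and highest levels were 25.1, 52.6 and 61.3 CPM in TNTSham and 17.6, 24.8 and 34.8 CPM in TNTProx1. TNTSham 1 was the single TNTSham library within the TNTProx1 range, and the other 6 lay at 46.8 CPM or more. The group difference was -0.97 ± 0.21 on the log2 scale (SE; edgeR adjusted p = 0.104), from means of 50.2 ± 12.2 CPM (SD, n = 7) to 25.6 ± 7.27 CPM (SD, n = 6). It was -1.09 ± 0.17 without TNTSham 1 and -0.71 ± 0.23 with 10 libraries, with adjusted p of 0.0951 and 0.109. Other fits called it: DESeq2 gave an adjusted p of 0.0028, the fit with the TEC share gave 0.0496 at -0.79, and edgeR without TNTProx1 1 gave 0.0229 at -1.08. With the skeletal muscle score as a covariate the value was -0.90 (adjusted p = 0.195).

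Fkbp5 (ENSMUSG00000024222.18, chromosome 17) encodes FKBP51, a co-chaperone that lowers the receptor's affinity for hormone and is itself induced by it, a short negative feedback loop. Levels ran from 26.8 CPM through a median of 46.2 to 55.3 CPM in TNTSham, and from 30.01 through 36.9 to 49.4 CPM in TNTProx1. All 6 TNTProx1 libraries lay within the TNTSham range, whose lowest value was again TNTSham 1. The difference for Fkbp5 on the log2 scale was -0.21 ± 0.15 (SE; adjusted p = 0.623), and -0.13 with the TEC share. Klf9 (ENSMUSG00000033863.3, chromosome 19), a Krüppel-like transcription factor induced by the receptor and under clock control in skin, ran from 63.6 through 76.3 to 99.3 CPM in TNTSham. In TNTProx1 it ran from 54.5 through 66.1 to 80.9 CPM, and 2 of the 6 libraries lay below the TNTSham range. Its log2 fold change was -0.24 ± 0.11 (adjusted p = 0.402), and -0.17 with the skeletal muscle score as a covariate.

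Sgk1 (ENSMUSG00000019970.16, chromosome 10) encodes a kinase, induced by serum and glucocorticoids, that promotes sodium transport and cell survival. It ran from 107 through 123 to 136 CPM in TNTSham and from 91.4 through 116 to 164 CPM in TNTProx1. The TNTProx1 libraries spread to both sides, with 2 above and 2 below the TNTSham range. TNTProx1 4 and 5 were at 164 and 136 CPM and TNTProx1 2 and 3 at 91.4 and 105 CPM. Between the groups Sgk1 differed by -0.04 ± 0.12 on the log2 scale (SE; adjusted p = 0.92). The value was -0.24 ± 0.11 with 10 libraries, 0.03 without TNTProx1 2 and 0.086 with the muscle score as a covariate, so its direction turned with the setting.

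The receptor's recognition sequence was looked for in the promoters of the members. RefSeq promoter windows of build GRCm38.p6 matched 7 of the 10 members, with 14 windows, and the 250 bases before each annotated start were searched on both strands. The palindromic element, AGAACA followed after any 3 bases by its reverse complement, was present in 3 of 32817 windows, 0.00914% of all, and 1 of these belonged to Sgk1. The Sgk1 window is shown because it holds this element. Capitals mark the palindrome, the hexamer AGAACA alone, found in 16.1% of all windows, and the E-box CACGTG, the binding sequence of clock activators, found in 6.02%. Counted from the annotated start, the palindrome begins at -189 and holds 2 of the 3 hexamers. The E-box begins at -246 and overlaps the remaining hexamer, at -242. The window lies at chr10:21993640-21993889 on the plus strand, before 1 of 6 annotated Sgk1 starts, and overlaps no annotated exon in GENCODE M21.
Sgk1 window: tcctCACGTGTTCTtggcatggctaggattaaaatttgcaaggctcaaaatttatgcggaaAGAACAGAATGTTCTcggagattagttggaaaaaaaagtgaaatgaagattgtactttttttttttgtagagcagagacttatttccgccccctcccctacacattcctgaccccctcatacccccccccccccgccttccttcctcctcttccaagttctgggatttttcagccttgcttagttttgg

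Shorter sites are given with 4 flanking bases on each side for the other members and for Per1, the matched letters in capitals. Of the 3 Tsc22d3 windows, 1 held the hexamer, at -185, and that window overlaps 137 bases of annotated Tsc22d3 exon. The Fkbp5 window and 1 of 2 Per1 windows each held an E-box, at -169 and -166. The Klf9 window held no match to the motifs searched. The windows lie at chrX:140600523-140600772 (Tsc22d3, minus strand), chr17:28486150-28486399 (Fkbp5, minus strand) and chr11:69098699-69098948 (Per1, plus strand). These matches describe letters in the window and do not show that a factor binds there.
Tsc22d3 hexamer: gacaTGTTCTaagt
Fkbp5 E-box: cagaCACGTGggca
Per1 E-box: agtcCACGTGcagg

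**Figure D2:**
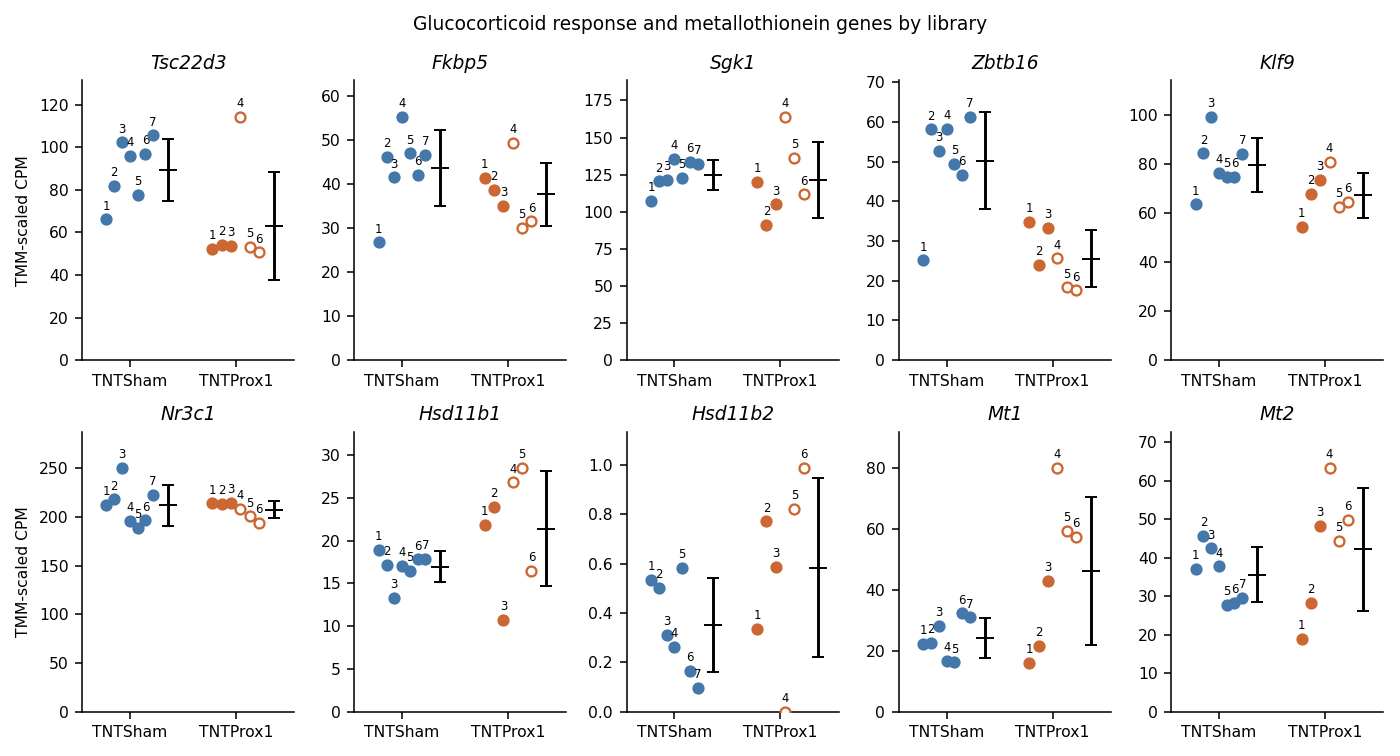
Level of each of the 10 genes (y axis, TMM-scaled CPM from 0) in the 7 TNTSham (blue) and 6 TNTProx1 (orange) libraries, with replicate numbers; open circles are TNTProx1 4, 5 and 6, and bars are mean ± SD. Tsc22d3 shows 5 TNTProx1 libraries at 50.6 to 54.0 CPM and TNTProx1 4 at 114 CPM, and Mt1 is highest in the open circles.

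The receptor gene Nr3c1 (ENSMUSG00000024431.16, chromosome 18) had the narrowest spread of all members within TNTProx1 relative to its mean, with an SD of 4.11% of the mean. It ran from 189 through 212 to 250 CPM in TNTSham and from 194 through 211 to 215 CPM in TNTProx1. All 6 TNTProx1 libraries lay within the TNTSham range. It differed by -0.03 ± 0.08 on the log2 scale (SE; adjusted p = 0.903), with a sign that turned in the fit of 10 libraries (0.01 ± 0.10).

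Hsd11b1 (ENSMUSG00000016194.15, chromosome 1), which regenerates active hormone inside the cell, was at 13.3, 17.2 and 18.9 CPM (lowest, median and highest) in TNTSham and 10.7, 22.9 and 28.5 CPM in TNTProx1. TNTProx1 1, 2, 4 and 5 exceeded every TNTSham library, and TNTProx1 3 was under all of them. Hsd11b1 differed on the log2 scale by 0.34 ± 0.19 (SE; adjusted p = 0.492), by 0.15 with 10 libraries and by -0.08 with limma voom. H6pd, which supplies the reduced cofactor that Hsd11b1 needs, averaged 72.1 ± 5.22 CPM over the 7 TNTSham libraries and 88.2 ± 12.8 CPM (± SD) over the 6 of TNTProx1, that is, 0.29 ± 0.10 on the log2 scale (adjusted p = 0.222; 0.19 with the muscle score).

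Hsd11b2 (ENSMUSG00000031891.7, chromosome 8), the inactivating enzyme best known from the kidney, was barely detected. It had 3 to 22 counts per library in TNTSham and 0 to 42 in TNTProx1, or 0.0955, 0.312 and 0.583 CPM against 0, 0.678 and 0.987 CPM (lowest, median and highest). TNTProx1 4 had 0 counts, which allows up to 0.0676 CPM (3 counts, counting error only). Of the other TNTProx1 libraries, 4 lay above the TNTSham range. For Hsd11b2 the log2 fold change was 0.72 ± 0.66 (SE; adjusted p = 0.693), so a difference was not detectable at this depth. The log2 ratio of Hsd11b1 to Hsd11b2, with 0.5 CPM added to each, was 4.38 ± 0.37 (SD, n = 7) in TNTSham and 4.35 ± 0.88 (SD, n = 6) in TNTProx1. The ratio was 3.97 to 4.95 in TNTSham and 3.37 to 5.77 in TNTProx1, so the TNTProx1 range contained that of TNTSham. The added 0.5 CPM was larger than the TNTSham mean of Hsd11b2, 0.35 CPM, and so sets much of these values. In TNTProx1 4, with 0 counts of Hsd11b2, it was the whole denominator of the highest ratio, 5.77. The ratio therefore does not measure the balance of the enzymes closely.

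Mt1 (ENSMUSG00000031765.9) and Mt2 (ENSMUSG00000031762.8) lie beside each other on chromosome 8. Mt1 was at 16.2, 22.6 and 32.3 CPM (lowest, median and highest) in TNTSham and 16.1, 50.2 and 80.0 CPM in TNTProx1. The TNTProx1 libraries formed a wide spread in which 4, 5 and 6 were at 80.0, 59.3 and 57.4 CPM and TNTProx1 3 at 43.1 CPM, all above the TNTSham range. TNTProx1 2, at 21.6 CPM, was within it, and TNTProx1 1 just below it. Mt1 differed on the log2 scale by 0.93 ± 0.32 (SE; edgeR adjusted p = 0.238), by 0.15 ± 0.29 with 10 libraries and by 0.59 with limma voom. With the TEC share as a covariate it was 0.38 (adjusted p = 0.463), with the muscle score 1.36 (adjusted p = 0.148), and without TNTProx1 1 it was 1.11 (adjusted p = 0.0444). TNTProx1 1 to 3 had 16.1 to 43.1 CPM of Mt1, and the libraries with a low TEC share, TNTProx1 4 to 6, had 57.4 to 80.0 CPM.

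Mt2 was at 27.7, 37.0 and 45.7 CPM (lowest, median and highest) in TNTSham and 19.0, 46.3 and 63.2 CPM in TNTProx1. TNTProx1 3, 4 and 6 lay above the TNTSham range and TNTProx1 1 below it. Mt2 differed on the log2 scale by 0.25 ± 0.23 (SE; adjusted p = 0.698) and turned to -0.16 ± 0.25 with 10 libraries and -0.046 with the TEC share. It was 0.095 without TNTProx1 4, 0.40 without TNTProx1 1, 0.48 with the muscle score and 0.045 with limma voom. Both genes were highest in TNTProx1 4 and lowest in TNTProx1 1, so that the group spread of Mt1 and Mt2 together, 35.0 to 143 CPM, was wider than the 43.9 to 70.7 CPM of TNTSham. The log2 ratio of Mt2 to Mt1 was 0.56 ± 0.51 (SD, n = 7) in TNTSham and -0.03 ± 0.33 (SD, n = 6) in TNTProx1, and it was below 0 in TNTSham 6 and 7 and in TNTProx1 4, 5 and 6. Reads shared between such similar genes could be split by the counting. In addition, 432 of the 588 exon bases of Mt2 overlap Gm45774, an antisense gene with 33 counts in all against 19538 on Mt2, and the sources used here do not say how strand was handled in counting. The library kit keeps strand.

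**Figure D3:**
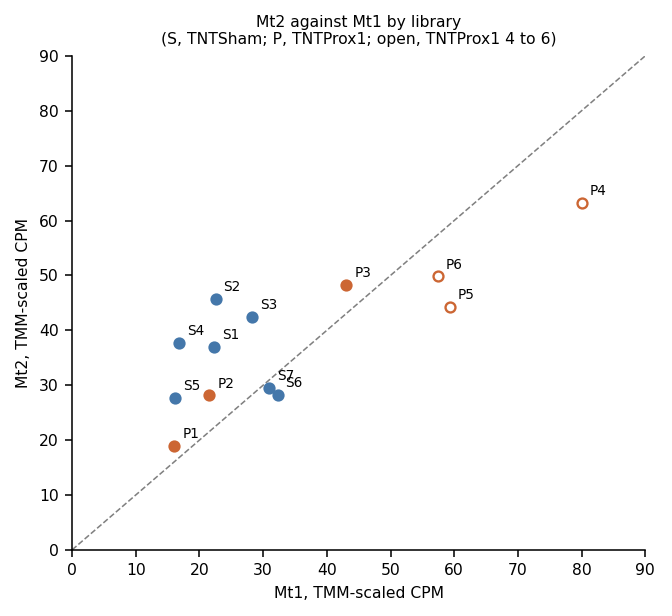
Mt2 (y axis) against Mt1 (x axis), both in TMM-scaled CPM, 1 point per library; the dashed line marks equal levels and open circles are TNTProx1 4 to 6. The open circles lie at 57.4 to 80.0 CPM of Mt1, below the line, while 5 of the 7 TNTSham points lie above it.

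The metal response element, whose core is TGCACNC or TGCGCNC, was searched in the same windows, of which 21.4% held at least 1 match and 1.26% held 3 or more. The Mt2 window held 3 and the Mt1 window 1. The Hsd11b1 window held 1 as well. Those of the metallothioneins are printed with 4 flanking bases, since this is the element through which Mtf1 acts on them. The windows lie at chr8:94172368-94172617 (Mt2, plus strand, within an exon of Gm45774 over all 250 bases) and chr8:94178839-94179088 (Mt1, plus strand). GENCODE M21 also lists later starts of both genes, whose upstream sequence these windows do not cover.
Mt2 site at -223: cctcTGCACCCggcc
Mt2 site at -128: ccttTGCGCTCagct
Mt2 site at -50, reverse strand: gggcGTGTGCAggct
Mt1 site at -23: gctgTGCACACtggc

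Genes of metal handling around the metallothioneins showed no shared direction. Of 19 listed, 17 were tested, 9 above and 8 below 0, at a median log2 fold change of 0.02, against -0.02 over all genes. Over all genes, 47.7% were above and 52.3% below 0. At an unadjusted p under 0.05, 3 were higher and 1 lower, beside 8.33% and 3.92% of all genes. EdgeR called 0, while DESeq2 called 2, limma voom 2 and the fit with the TEC share 2, beside 0%, 3.62%, 2.5% and 2.38% of all genes. Mt3, a metallothionein best known from brain, averaged 1.40 ± 0.50 CPM over the 7 TNTSham libraries and 3.26 ± 0.89 CPM (± SD) over the 6 of TNTProx1, a difference of 1.22 ± 0.29 on the log2 scale (SE; adjusted p = 0.119), and 1.01 with 10 libraries. Mt4, the metallothionein of stratified epithelium, averaged 73.2 ± 25.8 CPM in TNTSham and 44.1 ± 23.5 CPM in TNTProx1 (-0.73 ± 0.33, adjusted p = 0.395). Its value was -1.64 with 10 libraries, -1.32 with limma voom (adjusted p = 0.0453), -1.39 with the TEC share as a covariate (adjusted p = 0.0127) and -0.13 with the muscle score. Of the 4 metallothionein genes, 3 were thus above 0 and 1 below. Slc39a1, a zinc importer, had a log2 fold change of 0.44 ± 0.11 (0.22 with 10 libraries). Slc30a1, a zinc exporter and classical Mtf1 target, had -0.24 ± 0.12, which was -0.40 with 10 libraries, -0.37 with the TEC share, -0.36 with limma voom and -0.015 with the muscle score. The single gene of the 17 whose groups did not overlap was Slc30a5, a zinc transporter of the secretory pathway named after its values were seen, at 0.17 ± 0.06 (adjusted p = 0.294). Such a separation was seen in 0.398% of all genes upward and 0.214% downward.

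Genes of the oxidative stress response were above 0 in 11 of 12 members, beside 47.7% of all genes, at a median of 0.21. At an unadjusted p under 0.05, 4 were higher and 0 lower, beside 8.33% and 3.92% of all genes. EdgeR called 0 (0% of all genes). DESeq2, limma voom and the fit with the TEC share called 1 each, beside 3.62%, 2.5% and 2.38%. Gsr, glutathione reductase, averaged 35.97 ± 7.67 CPM over the 7 TNTSham libraries and 57.1 ± 7.58 CPM (± SD) over the 6 of TNTProx1, a difference of 0.67 ± 0.14 on the log2 scale (SE; adjusted p = 0.0927). Hmox1, heme oxygenase, had 0.49 ± 0.16 (adjusted p = 0.22). With 10 libraries the list's median was 0.02, with 7 of 12 above 0, Gsr at 0.69 and Hmox1 at 0.18. The median was 0.12 with the TEC share and 0.34 with the muscle score. Hmox1 was at 0.31 with the TEC share and 0.32 with limma voom. Gclc, a subunit of the glutathione-synthesis enzyme, was the member below 0, at -0.03 ± 0.09.

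Other genes that glucocorticoids are known to induce were split evenly with 13 libraries, but not with 10. Of 30 tested, 15 were above and 15 below 0 with 13 libraries, beside 47.7% and 52.3% of all genes, at a median of -0.00087. At an unadjusted p under 0.05, 5 were higher and 4 lower, beside 8.33% and 3.92% of all genes. EdgeR called 0, DESeq2 2, limma voom 3 and the fit with the TEC share 1, beside 0%, 3.62%, 2.5% and 2.38%. With 10 libraries, 10 were above and 20 below 0, at a median of -0.058, against -0.0012 over all genes. There, 4 were higher and 6 lower at an unadjusted p under 0.05, beside 9.34% and 12.1% of all genes. Tgm2, transglutaminase, averaged 52.1 ± 7.29 CPM over the 7 TNTSham libraries and 80.4 ± 14.8 CPM (± SD) over the 6 of TNTProx1 (log2 fold change 0.63 ± 0.13 SE, adjusted p = 0.0927). It was the 1 gene of the 30 whose groups did not overlap, beside 0.398% of all genes upward and 0.214% downward. Cebpd, an acute phase transcription factor, had 0.64 ± 0.20 (adjusted p = 0.192), and 0.18 with 10 libraries, 0.24 with limma voom and 0.39 with the TEC share. Per1 and Fam107a stood lower. Per1, a clock repressor with direct receptor binding sites, averaged 111 ± 18.7 CPM in TNTSham and 66.1 ± 20.5 CPM in TNTProx1 (-0.75 ± 0.18, adjusted p = 0.124), and Fam107a, a stress-responsive actin-binding protein, had -0.94 ± 0.33 (adjusted p = 0.262).

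Genes that glucocorticoids are known to repress stood mostly higher, by a margin that depended on the setting. Of 16 listed, 15 were tested and 14 of them were above 0, beside 47.7% of all genes, with a median of 0.58 on the log2 scale. The median was 0.88 with 10 libraries, and with the muscle score as a covariate it was 0.21, with 10 above and 5 below 0. At an unadjusted p under 0.05, 6 were higher and 0 lower, beside 8.33% and 3.92% of all genes. EdgeR called 0, DESeq2 2, limma voom 5 and the fit with the TEC share 2, beside 0%, 3.62%, 2.5% and 2.38%. Nos2, inducible nitric oxide synthase, averaged 3.49 ± 2.30 CPM over the 7 TNTSham libraries and 9.89 ± 2.63 CPM (± SD) over the 6 of TNTProx1, a difference of 1.5 ± 0.33 on the log2 scale (SE; adjusted p = 0.104). Mmp3, a stromelysin, had 0.90 ± 0.28 (adjusted p = 0.19). Tslp, an epithelial cytokine, was the member below 0, at -0.28 ± 0.51, with a value that leaving out TNTSham 1 turned to 0.038. The list consists of inflammatory mediators and matrix proteases that respond to many signals, and the summed level of 7 macrophage markers was 1235 to 2051 CPM in TNTSham and 1415 to 2219 CPM in TNTProx1. Its part in the result was not tested.

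The machinery around the receptor had no shared direction, with 10 of 19 genes above and 9 below 0 at a median of 0.00081, Nr3c1, Hsd11b1 and Hsd11b2 included. Over all genes, 47.7% were above and 52.3% below 0, and at an unadjusted p under 0.05, 8.33% were higher and 3.92% lower. EdgeR, DESeq2, limma voom and the fit with the TEC share called 0 of the 19, beside 0%, 3.62%, 2.5% and 2.38% of all genes. H6pd, given above, was the 1 gene higher at an unadjusted p under 0.05 and Ncoa1, a coactivator, the 1 lower (log2 fold change -0.22 ± 0.09 SE, adjusted p = 0.302; -0.12 with 10 libraries). Nr3c2, the mineralocorticoid receptor, which binds the same hormone, had -0.37 ± 0.23 (adjusted p = 0.542), which was -0.10 with 10 libraries, -0.24 with the TEC share and -0.20 without TNTProx1 4. It was also in the list of mineralocorticoid receptor targets, genes of sodium transport, of which 6 of 7 were below 0 at a median of -0.34. The median was -0.64 with 10 libraries and -0.11 with the muscle score, where 3 of 7 were above 0. In this list 2 genes were lower at an unadjusted p under 0.05, beside 3.92% of all genes, with 0 called by each of the same tests. These were Atp1b1, a sodium pump subunit, at -0.44 ± 0.20 (-0.11 with the muscle score), and Nedd4l, a ubiquitin ligase of the sodium channel, at -0.31 ± 0.14. Nedd4l was at -0.044 with 10 libraries and at -0.14 with limma voom or the TEC share. Genes of hormone synthesis and its control were mostly near the detection limit. Of 9 listed, 3 were tested (Star, Cyp11a1 and Mc2r), 1 above and 2 below 0, and Crh had no counts in any library.

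**Figure D4:**
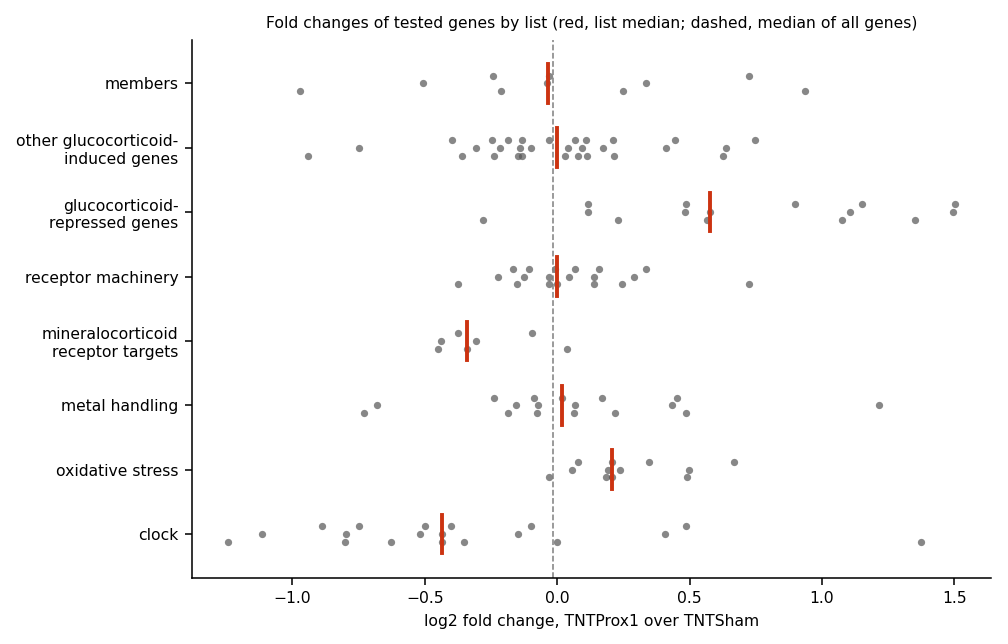
Log2 fold change of TNTProx1 over TNTSham (x axis) for every tested gene of the 10 members and 7 related lists (grey points); red bars are list medians and the dashed line is the median of all genes, -0.02. The glucocorticoid-repressed list sits to the right at 0.58 and the clock list to the left at -0.43, while the list of other induced genes is centred at -0.00087. All values are from the fit of 13 libraries.

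The members were also set beside the genes of the circadian clock. Of 19 clock genes, 16 were below and 3 above 0, beside 52.3% and 47.7% of all genes, at a median of -0.43. At an unadjusted p under 0.05, 12 were lower and 2 higher, beside 3.92% and 8.33% of all genes. EdgeR called 0, DESeq2 8, limma voom 11 and the fit with the TEC share 6, beside 0%, 3.62%, 2.5% and 2.38%. This pattern was known before the members were chosen. Per1 was at 78.2 to 128 CPM in TNTSham and 44.3 to 93.5 CPM in TNTProx1. Dbp, a clock output transcription factor, was at 38.5 to 60.4 and 17.6 to 55.7 CPM, and Bmal1, the clock activator, at 15.1 to 26.6 and 7.14 to 41.1 CPM. Per2 was at 37.4 to 53.7 and 10.1 to 35.8 CPM, and Npas2, the partner of Bmal1, at 4.97 to 7.14 and 6.11 to 25.6 CPM. Nr1d1, the repressor REV-ERB alpha, differed by -0.10 ± 0.15 on the log2 scale (SE; adjusted p = 0.816).

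Across the 10 libraries, Sgk1 and Per1 had the closest relation of 60 member and clock gene pairs, with a Pearson r of log2 CPM of 0.95 and a Spearman rho of 0.99. It was 0.94 and 1 over the 7 TNTSham libraries alone, and 0.84 and 1 without the 2 libraries farthest from the median of Per1. For Tsc22d3 with Per1, r was 0.84 and rho 0.72 over 10 libraries, and 0.78 and 0.5 over the 7 of TNTSham. Zbtb16 had 0.86 and 0.81 over 10, and 0.72 and 0.43 over 7. For Fkbp5 the values were 0.57 and 0.85 over 10, and 0.80 and 0.68 over 7. Klf9 had 0.51 and 0.56 over 10 but 0.36 and -0.036 over 7, and Mt1 0.03 and 0.08 over 10. These values are descriptions, since all genes of a library share its group, depth scaling and tissue makeup. Makeup differed between the 10 libraries: the keratinocyte marker sum ran from 6571 CPM in TNTProx1 2 to 44520 CPM in TNTSham 5. Its part in these values was not tested. Of the 3 libraries left out of these values, TNTProx1 5 had the lowest Per1 of all, 44.3 CPM, with Sgk1 at 136 CPM.

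**Figure D5:**
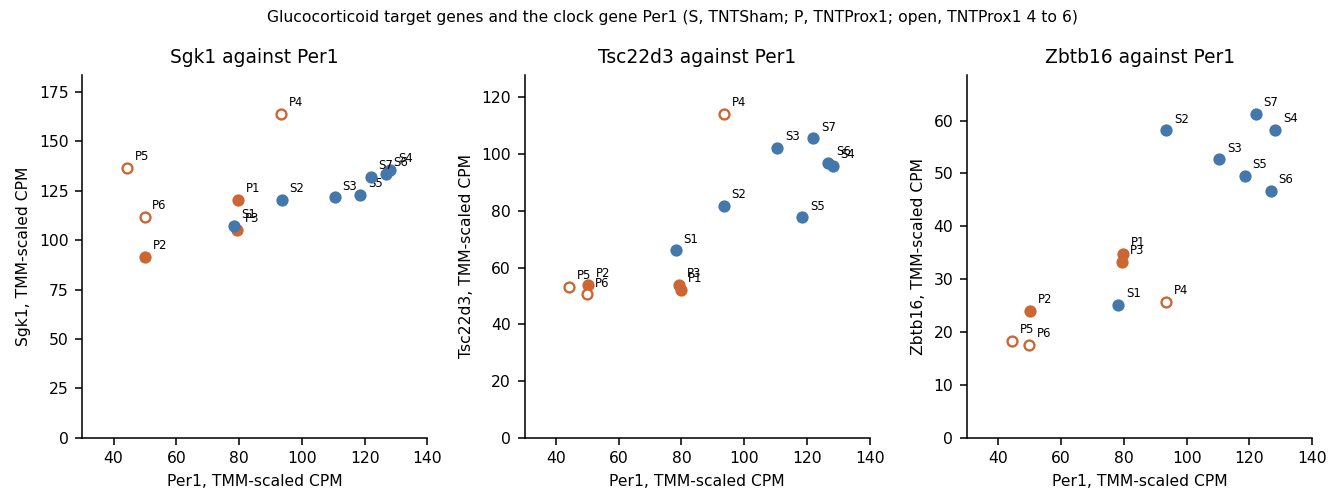
Sgk1, Tsc22d3 and Zbtb16 (y axes) against Per1 (x axis), all in TMM-scaled CPM, 1 point per library (S, TNTSham; P, TNTProx1; open circles, TNTProx1 4 to 6). Filled points rise together with Per1 in each panel, and TNTProx1 4 lies above them for Sgk1 and Tsc22d3, at 164 and 114 CPM.

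A pair of libraries held many of the extreme values. TNTSham 1 was the lowest of its group for 5 of 10 members, which were the 5 receptor-induced ones, and also for Per1 and Per2, at 78.2 and 37.4 CPM. It was also the library of high Xist and the highest of its group for Hsd11b1. Without it, the log2 fold changes of Tsc22d3, Fkbp5, Sgk1, Zbtb16 and Klf9 were -0.57, -0.30, -0.07, -1.09 and -0.29. TNTProx1 4 was the highest of its group for 6 of 10 members: Tsc22d3, Fkbp5, Sgk1, Klf9, Mt1 and Mt2. It was also the library farthest out on the first principal component. In the same library Bmal1 was lowest of all, at 7.14 CPM, Dbp was highest of its group, at 55.7 CPM, and Per2 was at 18.6 CPM, inside its group's range. Without TNTProx1 4 the log2 fold changes of Fkbp5, Sgk1 and Klf9 were -0.30, -0.14 and -0.30, and those of Mt1 and Mt2 0.71 and 0.095.

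Among the 45 pairs of members, the closest by Pearson r over 10 libraries were Sgk1 with Zbtb16 (r = 0.86), Tsc22d3 with Zbtb16 (0.83) and Fkbp5 with Zbtb16 (0.80). The order differed by Spearman rho, where Fkbp5 with Sgk1 and Fkbp5 with Zbtb16 were highest, both at 0.84, and Sgk1 with Zbtb16 had 0.79. Mt1 with Mt2 had a Pearson r of 0.49 and a rho of 0.62. Hsd11b2 ran against Sgk1 (r = -0.79, rho = -0.82) and Tsc22d3 (r = -0.71, rho = -0.76), at the low counts given above. Of 14552 other protein-coding genes with a mean log2 CPM above 0, Chic2, Senp3 and Tlcd1 were most like Tsc22d3 (r = 0.95, 0.92 and 0.92). Serpina3k, Pnpla3 and Slc25a27 were most like Fkbp5 (0.95, 0.94 and 0.93), Abhd12b, Gpld1 and Lss most like Zbtb16 (0.96, 0.94 and 0.94), and Gtpbp1, Pgls and Med26 most like Mt2 (0.91, 0.90 and 0.89). Spearman rho with Fkbp5 was lower for Serpina3k and Slc25a27, at 0.70 and 0.73, and 0.79 or more for the other genes named here. Serpina3k was also a low gene, at means of 0.95 CPM in TNTSham and 1.16 CPM in TNTProx1. The genes were found by ranking all candidates on these same 10 libraries, and the values carry no test.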

How the data were processed

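Per the submitters' processing notes, reads were handled with fastp 0.20.1, HISAT2 2.2.1 and featureCounts of Subread 2.0.2 on build GRCm39. The authors deposited raw counts per gene for 13 samples. The sources used here do not give the strand setting, annotation release or handling of multiply aligned reads. Of 55357 genes, 52081 matched GENCODE M21 (GRCm38) by identifier, which gave symbols, gene classes and exon lengths only. Counts were filtered with filterByExpr, scaled by TMM and tested in edgeR 4.0.16 under R 4.3.3 with the group alone, after tests on simulated data. The threshold was a Benjamini-Hochberg adjusted p of 0.05 over 22876 genes. Log2 CPM for correlations had a prior count of 2. Alternatives were DESeq2 1.42.0, limma 3.58.1 voom, other scalings and filters, a TEC share or skeletal muscle score as covariate, and leaving out each library or TNTProx1 4 to 6.

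The members, gene lists and tests were chosen with earlier results of these data known. Genes named were the 10 members, 6 clock genes, the 2 genes of smallest p per direction in each other pathway list, among those of mean log2 CPM over 0, and the 3 genes most like each of Tsc22d3, Fkbp5, Zbtb16 and Mt2. For 1 list, a gene that this rule named is not reported here. The other marker lists had these summed levels in TNTSham and TNTProx1: adipocyte 148 to 391 and 179 to 377 CPM, mast cell 138 to 423 and 145 to 257 CPM, T cell 23.6 to 50.7 and 19.9 to 36.8 CPM, and kidney epithelium 0.669 to 2.23 and 0.940 to 5.74 CPM.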

Additional observations from a re-analysis of the deposited data

Results flagged for a closer look

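Of 20 groups of values, the 10 genes in each of the 2 groups, 3 held a library far from its group by Dixon's criterion, which chance meets in about 1 in 20. Tsc22d3 was at 114 CPM in TNTProx1 4, with the next library at 54.0 CPM. Zbtb16 was at 25.1 CPM in TNTSham 1, with the next at 46.8 CPM. Hsd11b1 was at 13.3 CPM in TNTSham 3, with the next at 16.5 CPM.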

How the results depend on the processing

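The count of genes called, 0 in edgeR, was 619 with DESeq2, 573 with limma voom, 545 with the TEC share as a covariate and 1 without a low-count filter, and it ranged from 0 to 589 when 1 library was left out (589 without TNTProx1 1 and 34 without TNTSham 5). Members called numbered 1 with DESeq2, limma voom or the TEC share and 0 to 2 with 1 library left out; the 2 without TNTProx1 1 were Zbtb16 and Mt1. Members at an unadjusted p under 0.05 numbered 2 with the muscle score and 3 to 5 with 1 library left out, against 4. The share of all genes at that threshold was 12.2% with 13 libraries. It was not computed for those other fits, so these counts of members are not read as a result. The cause of the changes between fits was not tested. Signs turned as follows. With the muscle score as a covariate, Sgk1 was at 0.086, Nr3c1 at 0.00092, Gclc at 0.11 and the median of other induced genes at 0.052. With limma voom, Hsd11b1 was at -0.080 and Nr1d1 at 0.052. With 10 libraries, Nr3c1 was at 0.012, Mt2 at -0.16 and the metal handling median at -0.063. The medians of mineralocorticoid targets (-0.64) and oxidative stress genes (0.015) moved there without turning. With the TEC share, Mt2 was at -0.046 and the medians of metal handling and receptor machinery at -0.033 and -0.030. List medians with a covariate were added after seeing the data. With 1 library left out, Sgk1 ranged from -0.14 to 0.031, Tslp from -0.60 to 0.038 and Gclc from -0.064 to 0.029. The medians ranged from -0.051 to 0.028 for other induced genes, from -0.038 to 0.10 for receptor machinery and from -0.043 to 0.054 for metal handling. No paired analysis was possible because the labels give no replicate numbers shared between the groups. Hsd11b2 had at most 42 counts per library, so its fold change is poorly measured.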
